A study of Mus musculus with 18 samples.

Results

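The SPATA genes are a set of mouse genes whose symbol stands for "spermatogenesis associated" followed by a number. The rule that chose them uses the symbol: rows of the deposited mRNA table whose symbol begins with Spata and a digit, 1 such symbol being left out. It was set with earlier results of these data known, so shares of members set against all genes are descriptions only. The table holds 28 of them among 22298 genes, and all 28 were abundant enough to be tested. RNA from whole testis was compared between 3 libraries of Taf7l knock-in mice (KI) and 3 libraries of wild-type mice (WT). All were adult C57BL/6 mice, and testes were frozen, extracted with Trizol and sequenced as stranded total RNA libraries. The sources used here do not say what the knock-in allele changes, and no label ties a library to an animal. The p-values therefore reflect how far the libraries of a genotype differ, which can include technical variation. Samples of germ cells isolated at the pachytene and round spermatid stages were not analysed here.

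The shared name groups genes by where their RNA was found and not by ancestry, so most members are unrelated in sequence. Spermatogenesis turns stem cells of the testis into sperm through mitotic, meiotic and haploid stages, and in the last of these the acrosome, the flagellum, the head-tail junction and the mitochondrial sheath are built. Several members act there: Spata16 in acrosome formation, Spata6 in the connecting piece between head and tail, Spata19 and Spata33 at sperm mitochondria. Others work in many tissues, such as Spata2 in ubiquitin signalling and Spata5 in ribosome maturation. Taf7l encodes a TFIID component, related to Taf7, that is made mainly in germ cells and takes part in basal transcription.

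Libraries held between 18602187 and 21446420 counts of mRNA genes in KI and between 17431309 and 18770025 in WT. Taf7l itself had 472, 525 and 581 counts in KI libraries and 507, 551 and 531 in WT libraries, with a log2 fold change of -0.11 ± 0.08 (SE) that did not pass (edgeR quasi-likelihood test with Benjamini-Hochberg adjustment, adjusted p = 0.632). Gene counts cannot show the altered sequence, so this is no check of the labels. In whole testis, fewer cells of a type and less RNA per cell cannot be told apart. Summed markers of elongating spermatids lay between 8260 and 10264 CPM (counts relative to the library total, TMM-scaled) in KI and between 8079 and 9765 in WT. Round spermatid markers summed to 615 to 645 CPM in KI and 550 to 631 in WT, and pachytene markers to 6685 to 7533 in KI and 7094 to 7608 in WT, so these germ cell sums overlapped. Sums did not overlap, and were higher in KI, for 3 marker lists: spermatogonia (613 to 654 CPM in KI, 567 to 609 in WT), Leydig cells (1217 to 1237 in KI, 1031 to 1189 in WT) and peritubular myoid cells (213 to 242 in KI, 177 to 205 in WT). In the spermatogonia list, however, 5 of 6 markers had a log2 fold change below 0. The exception, Dmrtb1, made up most of that sum, with 507 ± 37.7 CPM in KI and 452 ± 20.9 in WT (SD, n = 3 each). Of the 15 markers in those 3 lists edgeR called 0 (9 had an unadjusted p under 0.05, and DESeq2 called 3 higher). Over all 15787 tested genes edgeR called 0.982%, and 12.9% had an unadjusted p under 0.05. DESeq2 called 456 of the 15787. In the elongating spermatid list 2 of 6 were called by edgeR, Prm2 and Smcp, both higher, and 4 of 6 lay above 0, with a list median of 0.40. An unadjusted p under 0.05 was reached by 5 of the 6, among them Prm1, which was lower in KI. DESeq2 called 4 higher and 0 lower. Tnp1 (0.53 ± 0.12, edgeR, adjusted p = 0.0859) and Tnp2 (0.39 ± 0.12, adjusted p = 0.202) were not called by edgeR. The most abundant of the list, Prm1, had a value of -0.31 ± 0.12, with 3113 ± 498 CPM in KI and 3847 ± 421 in WT (SD, n = 3 each). Odf1 had -0.03 ± 0.06, and neither Prm1 nor Odf1 was called. Of the round spermatid markers edgeR called 0 of 5, with 2 at an unadjusted p under 0.05 and 1 higher by DESeq2. Of the pachytene markers it called 0 of 6, with 3 at an unadjusted p under 0.05 and 0 by DESeq2. Sums overlapped for Sertoli cells (1033 to 1335 CPM in KI, 998 to 1185 in WT), macrophages (64.5 to 83.1 in KI, 59.7 to 84.5 in WT), endothelium (43.9 to 61.6 in KI, 47.0 to 55.3 in WT), erythrocytes (65.9 to 111 in KI, 71.7 to 79.7 in WT) and epididymis (9.21 to 27.8 in KI, 11.2 to 36.0 in WT, with Lcn5 at 0 in each library). The part of cell composition in the results below was not tested.

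SPATA genes together took 0.905%, 0.855% and 0.898% of mRNA counts in KI libraries and 0.862%, 0.822% and 0.832% in WT libraries, ranges that overlap. Levels differed widely between members, which is shown per length in FPKM (fragments relative to transcript length and library size, as deposited). Spata20, a thioredoxin-like protein, was the most abundant, at 651, 624 and 647 FPKM in KI and 632, 589 and 594 in WT. At this level it stood above 99.7% of tested genes. Spata4 followed with 532, 444 and 493 FPKM in KI and 581, 552 and 583 in WT. Its KI libraries all lay below its WT libraries. Spata21, an EF-hand protein, had 375, 360 and 374 FPKM in KI and 355, 333 and 333 in WT. Spata19, a protein of sperm mitochondria, had 329, 275 and 329 FPKM in KI and 310, 290 and 302 in WT. Spata6 had 317, 274 and 299 FPKM in KI and 291, 298 and 296 in WT. For Spata19 and Spata6 the ranges of the genotypes overlapped, and in WT these neighbours in the order also overlapped each other.

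In WT testis the order of mean FPKM continued with Spata18 (256), Spata33 (160), Spata3 (158), Spata24 (132), Spata7 (131), Spata16 (124), Spata46 (113) and Spata31d1b (86.5). Then came Spata25 (62.8), Spata1 (62.6), Spata17 (61.7), Spata45 (53.0), Spata9 (40.9), Spata5 (40.8), Spata31 (37.3), Spata31d1a (35.3), Spata31d1d (27.8), Spata31d1c (20.3), Spata32 (19.2) and Spata48 (11.2). The lowest were Spata2 (8.47), Spata13 (2.42) and Spata2l (1.08). Neighbours whose WT libraries overlapped, and whose order is therefore not resolved, were Spata33 with Spata3; Spata24 with Spata7 and Spata7 with Spata16; Spata25, Spata1 and Spata17; the run from Spata9 to Spata31d1a; and Spata31d1c with Spata32. The members with roles in many tissues, Spata2 and Spata13, lay among the lowest, whereas Spata5 lay in the middle of the order.

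**Figure D1:**
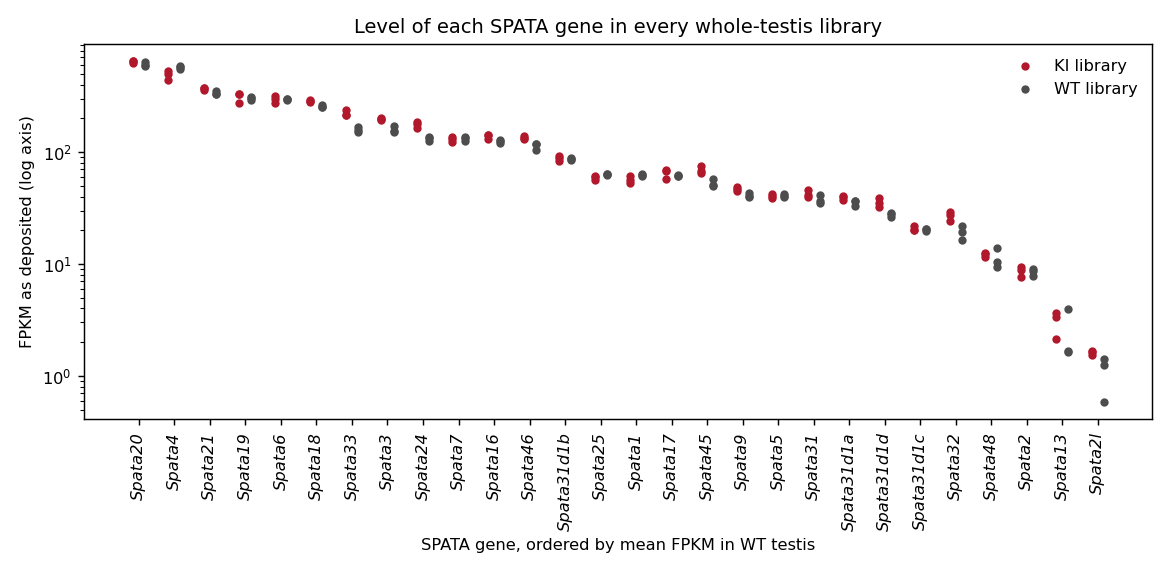
Each point is the deposited FPKM of 1 SPATA gene in 1 library (log axis; KI in red left of WT in grey), genes being ordered by their WT mean. Levels run from about 1.08 FPKM for Spata2l to 605 for Spata20 in WT. In several members, among them Spata33, Spata24 and Spata3, the KI points stand above the WT points.

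Between genotypes, 2 of the 28 genes passed the test across all 15787 genes, Spata33 and Spata24, and both were higher in KI. That is 7.14% of the members, against 0.982% of all tested genes called in either direction and 0.88% called higher. No member was called lower, where 0.101% of tested genes were. At an unadjusted p under 0.05 edgeR gave 1 member with a value below 0, Spata4, and DESeq2 called 0 lower. The log2 fold change was above 0 in 23 members and below 0 in 5, with a median of 0.15 and a range from -0.21 to 0.65. Over all tested genes 50.6% lay above 0 and the median was 0.0027. An unadjusted p under 0.05 was reached by 14 of the 28 members, against 12.9% of tested genes. In 11 members, 39.3%, every KI library lay above every WT library in CPM, against 10.1% of tested genes. Every KI library lay below every WT library in 0 members on the CPM scale, against 8.45% of tested genes. The authors' deposited table lists 6 members at an adjusted p under 0.05, namely Spata33, Spata24, Spata31d1d, Spata3, Spata32 and Spata45, among 446 genes in all (361 of them higher in KI).

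**Figure D2:**
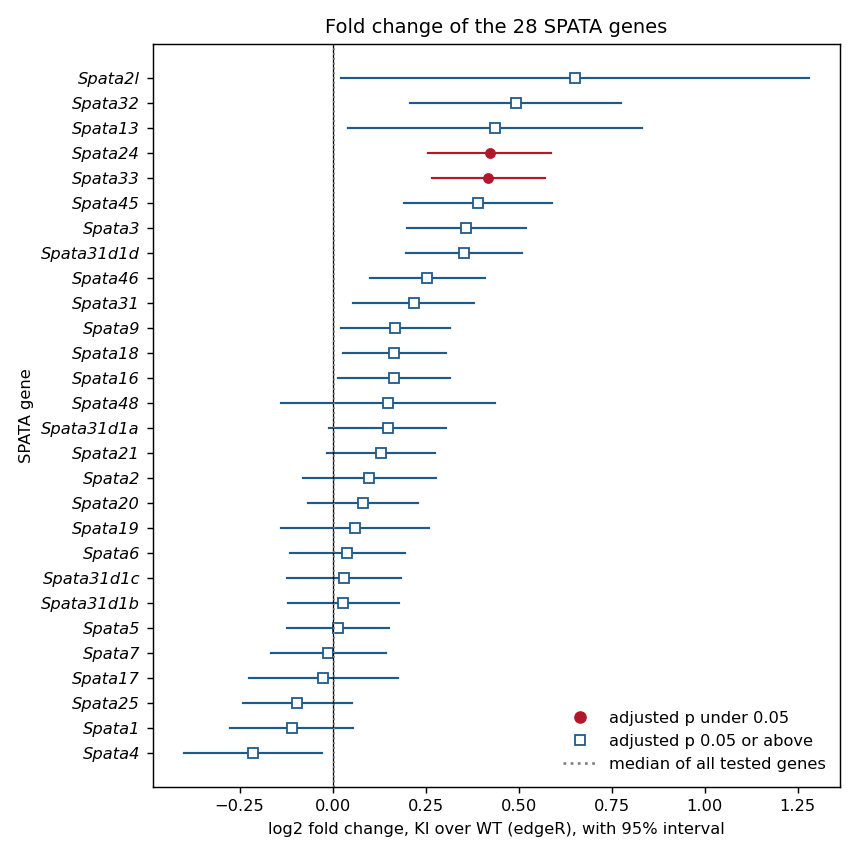
Each row is 1 SPATA gene, with its log2 fold change of KI over WT (point) and 95% interval (line) from edgeR. Filled red circles mark Spata24 and Spata33, which passed at an adjusted p under 0.05, and values run from -0.21 for Spata4 to 0.65 for Spata2l.

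Spata33 (ENSMUSG00000048478, mm10 chromosome 8 from 123212837 to 123222045) encodes an adaptor that holds the phosphatase calcineurin at sperm mitochondria. It had 2579, 2652 and 3314 counts in KI libraries and 2039, 2118 and 1800 in WT libraries. Scaled for depth, these were 142, 136 and 157 CPM in KI and 111, 112 and 102 in WT. All KI libraries lay above all WT libraries. The mean was 145 ± 10.5 CPM in KI and 108 ± 5.37 in WT (SD, n = 3 each). This gave a log2 fold change of 0.42 ± 0.07 (SE), or 33.7% more (edgeR, adjusted p = 0.0253). When each library was left out in turn the fold change stayed between 0.36 and 0.46. The adjusted p was under 0.05 only without KI library 2 (0.0272); it was 0.0539 without KI 1, 0.142 without KI 3, and 0.0710, 0.0837 and 0.120 without WT 1, 2 and 3.

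The start of Spata33 is shown since it is packed against another gene. The 100 bases before the start site given by RefSeq (GRCm38.p6, chr8:123212758-123212857, plus strand) hold 3 copies of the GC box letters GGGCGG, in capitals. The span given for Spata33 begins at 123212837 and that of its neighbour Chmp1a reaches 123212788. The window therefore takes in bases of both spans.
Spata33: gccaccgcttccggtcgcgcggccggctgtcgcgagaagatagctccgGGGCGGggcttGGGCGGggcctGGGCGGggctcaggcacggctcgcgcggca
Chmp1a, an ESCRT subunit gene on the opposite strand, begins 49 bases from the Spata33 span. Chmp1a had 96.5 ± 1.96 CPM in KI and 102 ± 1.68 in WT (SD, n = 3 each), and its log2 fold change of -0.08 ± 0.05 did not pass (edgeR, adjusted p = 0.617). On the other side, Cdk10 had a log2 fold change of -0.10 ± 0.08. Neither neighbour of Spata33 was called.

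Spata24 (ENSMUSG00000024352), also named Tipt, encodes a protein that binds the TATA-binding protein and its relative TRF2, factors of basal transcription. It had 3028, 2789 and 3624 counts in KI libraries and 2265, 2310 and 1999 in WT libraries. This corresponds to 167, 143 and 171 CPM in KI and 123, 122 and 114 in WT. All KI libraries were again above all WT libraries, KI library 2 being the lowest of the 3. The mean was 160 ± 15.2 CPM in KI and 120 ± 5.31 in WT (SD, n = 3 each). This gave a log2 fold change of 0.42 ± 0.07 (SE), or 34.0% more (edgeR, adjusted p = 0.0321). The fold change lay between 0.37 and 0.49 with 1 library left out, and the gene passed only without KI library 2 (adjusted p = 0.0164). It did not pass without KI 1 (0.0904), KI 3 (0.179), WT 1 (0.0893), WT 2 (0.114) or WT 3 (0.153). Its neighbour Prob1 had a log2 fold change of -0.03 ± 0.09.

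In a pair of other places it was the neighbour that passed and the SPATA gene that did not. Sgcb, a gene of the sarcoglycan complex, lies 3643 bases from Spata18 and had 20.6 ± 0.452 CPM in KI against 5.91 ± 0.617 in WT (SD, n = 3 each; log2 1.80 ± 0.12 SE; edgeR, adjusted p = 0.000272). Spata18, also known as Mieap and linked to mitochondrial quality control, had 739, 678 and 751 CPM in KI and 679, 629 and 625 in WT. Its genotypes overlapped by a narrow margin in CPM and did not overlap in FPKM, with a log2 fold change of 0.17 ± 0.06 (adjusted p = 0.297). Gng5, a G protein gamma subunit gene, begins 43 bases from Spata1 and rose by 0.45 ± 0.09 on the log2 scale (30.3 ± 0.860 CPM in KI, 22.1 ± 1.43 in WT; adjusted p = 0.0439). Spata1 had a value of -0.11 ± 0.07. Whether strand was used in counting is not given in the sources used here, so reads of overlapping or adjoining genes may not be fully separated.

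The largest fitted differences belonged to members that did not pass. Spata2l, the paralog of Spata2, had 4.97, 5.33 and 5.01 CPM in KI and 3.92, 1.75 and 4.09 in WT. Its KI libraries lay above its WT libraries, but WT library 2 stood far below the other WT libraries with 33 counts. The log2 fold change was 0.65 ± 0.28 (edgeR, adjusted p = 0.368) with a 95% interval from 0.02 to 1.28. It was 0.35 without WT library 2. The Spata2l span starts at 123232255 and that of Cdk10 ends at 123232256, so the spans overlap only at this edge. Spata2 itself, which bridges the deubiquitinase CYLD to the linear ubiquitin ligase, had 34.6, 38.2 and 39.7 CPM in KI and 34.6, 35.0 and 35.5 in WT. These genotypes overlapped and the value was 0.10 ± 0.08 (adjusted p = 0.676).

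Spata32 had 780, 653 and 848 counts in KI and 587, 517 and 414 in WT, that is 43.1, 33.5 and 40.0 CPM in KI and 31.9, 27.4 and 23.5 in WT. KI libraries lay above WT libraries, with wide spread in both genotypes, and the log2 fold change of 0.49 ± 0.13 did not pass (edgeR, adjusted p = 0.122). Spata13, an exchange factor for Rac and Cdc42 also known as Asef2, had 13.7, 18.8 and 14.1 CPM in KI and 8.87, 12.9 and 12.8 in WT, a value of 0.44 ± 0.18 (adjusted p = 0.335) that was 0.27 without KI library 2 and 0.28 without WT library 1. Its deposited FPKM were 2.15, 3.38 and 3.68 in KI and 1.64, 3.94 and 1.68 in WT, and here the genotypes overlapped. The length implied by counts and FPKM ran from 3325 to 7683 bases between libraries for Spata13, so its level per length is uncertain.

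Short members close to the threshold were Spata45 and Spata3. Spata45 had 38.9, 40.5 and 36.7 CPM in KI and 29.3, 27.3 and 32.0 in WT, with no overlap and a log2 fold change of 0.39 ± 0.09 (edgeR, adjusted p = 0.0823). Spata3 had 212, 197 and 215 CPM in KI and 178, 155 and 154 in WT, with no overlap and a value of 0.36 ± 0.07 (adjusted p = 0.0522). Spata46, a protein of the sperm head, averaged 135 ± 3.01 CPM in KI and 113 ± 9.06 in WT (SD, n = 3 each; 0.25 ± 0.07, adjusted p = 0.142). Spata9 averaged 59.6 ± 0.631 CPM in KI and 53.0 ± 1.92 in WT (0.17 ± 0.07, adjusted p = 0.317). In these members too every KI library exceeded every WT library.

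The Spata31 family, a group of paralogs, holds 5 genes on chromosome 13, and Spata31d1a, Spata31d1b and Spata31d1d lie within 59700083 to 59731752. The 100 bases before each start are printed from RefSeq (GRCm38.p6) to show how alike the copies are. For Spata31d1a the span of the gene ends at 59706587 on the minus strand. Its window therefore lies within the span and not upstream of it. Capitals mark TGCTCTGTGA, the longest run that all 4 Spata31d1 windows share, which Spata31 lacks in its window.
Spata31d1a: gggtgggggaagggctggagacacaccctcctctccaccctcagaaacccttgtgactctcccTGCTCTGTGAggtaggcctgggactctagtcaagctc
Spata31d1b: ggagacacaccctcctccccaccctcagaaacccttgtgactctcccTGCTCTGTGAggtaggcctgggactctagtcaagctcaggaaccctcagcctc
Spata31d1c: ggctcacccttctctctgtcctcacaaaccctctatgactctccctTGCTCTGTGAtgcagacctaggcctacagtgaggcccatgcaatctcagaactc
Spata31d1d: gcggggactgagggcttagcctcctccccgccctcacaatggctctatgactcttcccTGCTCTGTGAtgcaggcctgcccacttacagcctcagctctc
Spata31: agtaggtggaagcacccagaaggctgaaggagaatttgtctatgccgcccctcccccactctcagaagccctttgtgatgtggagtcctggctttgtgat
The windows are chr13:59706198-59706297 (minus strand), chr13:59712184-59712283 (plus), chr13:65032958-65033057 (plus), chr13:59731753-59731852 (minus) and chr13:64917306-64917405 (plus), in the order printed. The shared letters, searched on both strands, were found in 105 of 32851 promoter windows of all genes, 0.3196%. Over 250 bases before the start, Spata31d1a and Spata31d1b were identical at 224 positions of an alignment, 89.6%. For Spata31d1a these bases too lie within its span. Other pairs of Spata31d1 genes were identical at 57.6% to 62.4%, and Spata31 with any of them at 41.6% to 45.6%. Mismatches carried no penalty in the alignment and no unrelated windows were aligned, so these shares have no baseline.

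No member of this family passed the test, and differences between its members were not tested. Spata31d1d had 165, 186 and 174 CPM in KI and 143, 128 and 141 in WT, with no overlap. Its log2 fold change of 0.35 ± 0.07 missed the threshold by a small margin (edgeR, adjusted p = 0.0504). Spata31 had 170, 174 and 164 CPM in KI and 140, 136 and 161 in WT, with no overlap, WT library 3 being the nearest to KI (0.22 ± 0.07, adjusted p = 0.241). Spata31d1a had 216, 186 and 207 CPM in KI and 194, 184 and 172 in WT (0.15 ± 0.07, adjusted p = 0.423). Spata31d1b had 501, 443 and 518 CPM in KI and 497, 464 and 473 in WT, a value of 0.03 ± 0.07. Spata31d1c had 97.4, 85.2 and 88.7 CPM in KI and 92.7, 87.6 and 85.2 in WT, a value of 0.03 ± 0.07. In FPKM the genotypes did not overlap for Spata31d1a, KI being higher, and did overlap for Spata31. In CPM the genotypes overlapped in the Spata31d1a, Spata31d1b and Spata31d1c genes. Per 100 counts of these 3 genes, Spata31d1d had 20.3, 26.0 and 21.4 counts in KI and 18.2, 17.4 and 19.3 in WT. This ratio, chosen after the values were seen, was higher in each KI library. The sources used here do not say how reads shared by such copies were assigned, which makes the value of each single copy uncertain.

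Values below 0 were few and small. Spata4, the second most abundant member, had 746, 587 and 683 CPM in KI and 810, 737 and 790 in WT. KI library 1 overlapped the WT range, and the log2 fold change of -0.21 ± 0.08 did not pass (edgeR, adjusted p = 0.316); it was -0.13 without KI library 2. Spata1 had 150, 122 and 134 CPM in KI and 152, 143 and 144 in WT (-0.11 ± 0.07, adjusted p = 0.598), and its value was -0.19 without KI library 1 and -0.048 without KI library 2. Spata25 had 60.3, 57.1 and 55.5 CPM in KI and 62.7, 60.2 and 61.8 in WT (-0.10 ± 0.07, adjusted p = 0.607). Spata17, a protein with calmodulin-binding IQ motifs, had 88.3, 74.7 and 97.5 CPM in KI and 90.9, 84.6 and 89.5 in WT (-0.03 ± 0.09). Spata7, needed for the connecting cilium of photoreceptors, had 345, 298 and 329 CPM in KI and 347, 324 and 308 in WT (-0.01 ± 0.07). In these genes the genotypes overlapped in CPM, and KI library 2 was the lowest of the 6 libraries in Spata4, Spata1, Spata17 and Spata7. In FPKM every KI library of Spata4 and Spata25 lay below every WT library.

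The remaining members also overlapped between genotypes in CPM. In deposited FPKM every KI library of Spata16 and Spata21 lay above every WT library. Spata16, whose loss causes round-headed sperm in humans, had a log2 fold change of 0.17 ± 0.07 (edgeR, adjusted p = 0.338). Spata5, an AAA ATPase of ribosome maturation, had 162, 146 and 153 CPM in KI and 159, 145 and 152 in WT, a value of 0.01 ± 0.06. The others were Spata48 (0.15 ± 0.13, from 0.04 to 0.28 with 1 library left out), Spata21 (0.13 ± 0.06), Spata20 (0.08 ± 0.07), Spata19 (0.06 ± 0.09) and Spata6 (0.04 ± 0.07). The 95% interval of Spata6 ran from -0.11 to 0.19 and that of Spata5 from -0.12 to 0.15.

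The fold change went with transcript length mainly among the short genes of these libraries, and both called members are short. Over 10 length classes of all tested genes, the median log2 fold change was 0.11 in the shortest and 0.035 in the next. In the longer classes it lay between -0.026 and 0.0098. Length was implied by counts and FPKM and was 666 bases for Spata33 and 908 for Spata24, against a median of 2482 over the members and 3050 over all tested genes. The shortest of 10 length classes of tested genes, from 264 to 1271 bases, held 7 members: Spata19, Spata24, Spata25, Spata3, Spata33, Spata45 and Spata46. Their median log2 fold change was 0.36, against 0.11 for all genes of that class, of which 4.88% were called. Within the class Spata19 (0.06) and Spata25 (-0.10) did not share the difference. With the length trend of all genes removed, 0 members were called by edgeR, where 67 of all genes were, and the member median was 0.13. Spata33 then had a value of 0.24 (adjusted p = 0.184) and Spata24 of 0.30 (adjusted p = 0.129). Spata45, the shortest member at an implied 559 bases, had 0.18 (adjusted p = 0.445), Spata46 had 0.15 (adjusted p = 0.420), Spata3 had 0.26 (adjusted p = 0.167), Spata9 had 0.10 and Spata25 had -0.20. Spata31d1d, at an implied 4949 bases, had 0.37 (adjusted p = 0.0603) and Spata32, at 1438 bases, had 0.44 (adjusted p = 0.192). The cause of the length trend was not tested.

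**Figure D3:**
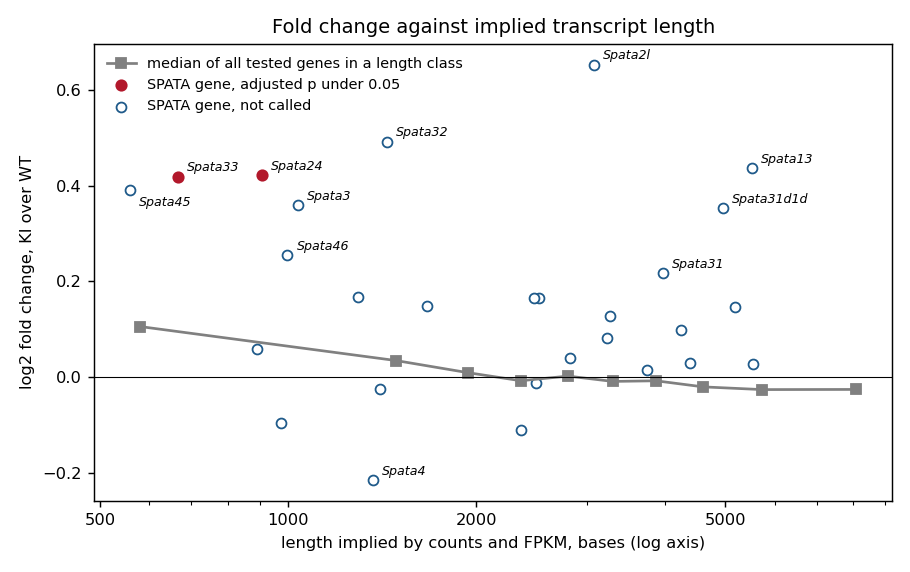
Points are the 28 SPATA genes by implied length in bases (log axis) and log2 fold change of KI over WT; the grey line joins the medians of all tested genes in 10 length classes, the last drawn near its lower bound. The called genes Spata33 and Spata24 (filled red) lie at 666 and 908 bases, above the class median of 0.11.

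Promoter windows from RefSeq, from 250 bases before to 50 after the start, were held for 26 of the 28 members, 33 windows in all. They shared no common motif among those searched on both strands. The TATA box letters TATAAA were in 2 windows, of Spata4 and Spata48, where 13.62% of all windows hold them. The cyclic AMP response element TGACGTCA was in 1 window, of Spata7 (1.79% of all), and its core TGACG, which lies within it, in 10 windows (20.81% of all). The letters CCAAT were in 11 windows (37.41% of all) and GGGCGG in 14 (35.66% of all). The number of CpG pairs ran from 0 to 48 in member windows, with 39 in that of Spata33, and some genes have several windows. A window can lie within the span of its gene, as for Spata31d1a. The median was 4 in member windows and 7 in all windows, and 57.58% of member windows held 5 or fewer, against 43.56% of all. A match describes these letters only.

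The noncoding table gives another readout of the same loci. It holds 34 transcripts that carry the symbol of 14 members, of which 11 were tested, 17 had counts but were too low (at most 47 in all 6 libraries) and 6 were at 0 in each library. By edgeR 0 of the 11 were called, where 0.0968% of all 9301 tested transcripts were, and 2 had an unadjusted p under 0.05, as had 834 of all. The DESeq2 test called 1 of the 11, among 110 transcripts in all. Their log2 fold changes lay between -0.68 and 1.57, the median being 0.10. The first of the pair was the Spata6 transcript ENSMUST00000143879, with 1331, 1225 and 1752 counts in KI and 1035, 886 and 864 in WT. All KI libraries lay above all WT libraries. The mean was 940 ± 117 CPM in KI and 650 ± 49.2 in WT (SD, n = 3 each). This gave a log2 fold change of 0.54 ± 0.10 (SE), which did not pass (edgeR, adjusted p = 0.128). In the authors' deposited table its adjusted p is 0.00183, and it is the transcript that DESeq2 called. Per 100 counts of the coding gene Spata6 it had 8.005, 8.216 and 9.612 counts in KI and 6.70, 5.79 and 5.97 in WT. This ratio was computed only for transcripts with an unadjusted p under 0.05, so it is no separate support for a difference. The coding gene itself overlapped between genotypes.

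Spata6 has 5 tested noncoding transcripts, and they did not share a direction. ENSMUST00000140366 had 223, 129 and 197 counts in KI and 194, 232 and 220 in WT, a log2 fold change of -0.32 ± 0.20. ENSMUST00000122820, ENSMUST00000134000 and ENSMUST00000132802 had values of -0.30 ± 0.26, 0.10 ± 0.58 and -0.68 ± 0.46. In these 4 transcripts of Spata6 the genotypes overlapped.

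The other was ENSMUST00000212271 of Spata33, with 38, 33 and 44 counts in KI and 10, 10 and 16 in WT. The genotypes stood far apart, with a log2 fold change of 1.57 ± 0.32 and a 95% interval from 0.84 to 2.30, but edgeR did not call it (adjusted p = 0.137). Per 100 counts of the coding Spata33, a ratio chosen in the same way, it had 1.47, 1.24 and 1.33 counts in KI and 0.490, 0.472 and 0.889 in WT. The remaining tested transcripts, of Spata1 (-0.65 ± 0.38), Spata19 (0.20 ± 0.33), Spata20 (0.22 ± 0.15), Spata25 (0.41 ± 0.25) and Spata9 (-0.01 ± 0.28), overlapped between genotypes. Noncoding transcripts can overlap the coding gene, so the counts of both are not independent.

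**Figure D4:**
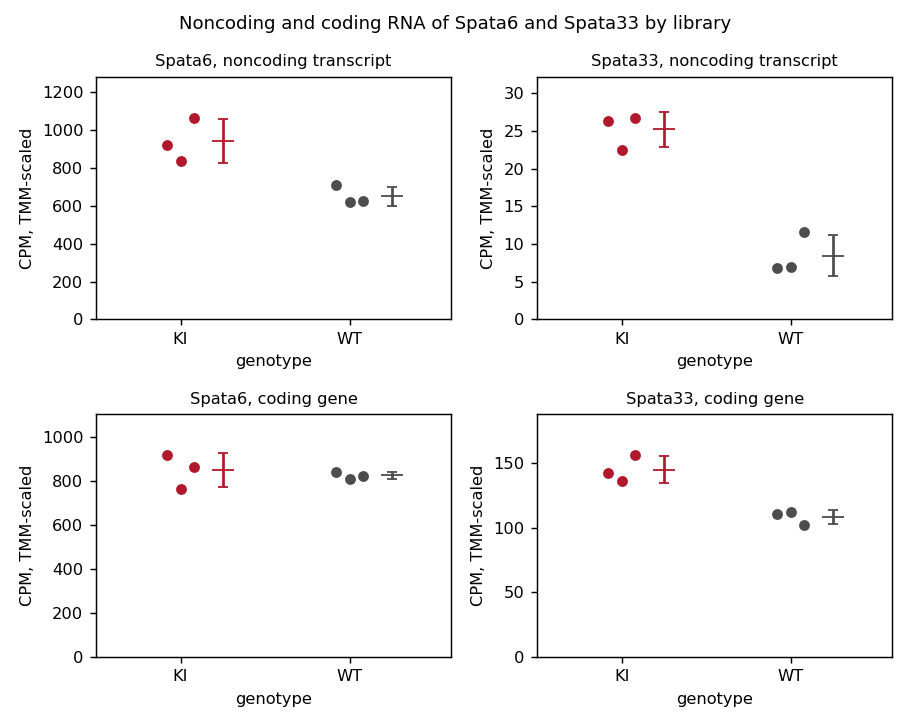
Points are TMM-scaled CPM of 1 noncoding transcript (upper row) and of the coding gene (lower row) per library, for Spata6 (left) and Spata33 (right), KI left of WT, with mean and SD. The noncoding Spata6 transcript averages 940 CPM in KI and 650 in WT, while the coding Spata6 points overlap.

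Circular RNAs form when an exon end is spliced back to an earlier exon start. The circular RNA table holds 22 circles of 9 members, with 326 counts in all, and each lies within the RefSeq span of its gene. By edgeR 0 of the 11 tested were called, as were 0% of all 3887 tested circles; 0 of the 11 and 191 of all had an unadjusted p under 0.05, and the DESeq2 test also called 0 of the 11. Spata17 hosts 4 circles and 174 of the counts, 85 in KI and 89 in WT. Its main circle (novel_circ_003854, chr1:187097777-187117469, 492 bases when spliced) had 21, 37 and 23 counts in KI and 18, 27 and 33 in WT. The genotypes overlapped, with a log2 fold change of -0.12 ± 0.29. Spata1 circles had 37 counts in KI and 17 in WT, of which 14 came from a single circle in KI library 2. The other hosts were Spata5 (15 counts in KI, 18 in WT), Spata16 (16 in KI, 8 in WT), Spata6 (14 in KI, 9 in WT), Spata7 (4 in KI, 2 in WT), Spata13 (0 in KI, 5 in WT), Spata21 (2 in KI, 3 in WT) and Spata3 (2 in KI, 0 in WT). At these counts a modest difference was not detectable.

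Genes known to work with SPATA proteins were counted in lists that hold partners and genes of the same structure. For Spata33, all 5 calcineurin subunit genes had a log2 fold change below 0 (median -0.14), and edgeR called 0 (0 at an unadjusted p under 0.05 and 0 by DESeq2). The most abundant, the testis-specific regulatory subunit Ppp3r2, had 490 ± 54.6 CPM in KI and 549 ± 15.6 in WT (SD, n = 3 each; -0.16 ± 0.08 SE; edgeR, adjusted p = 0.411), and the catalytic Ppp3cc had -0.05 ± 0.06. Summed calcineurin CPM ran from 736 to 870 in KI and from 877 to 905 in WT and did not overlap. Of 15 genes of the sperm mitochondrial sheath edgeR called 1, Smcp, a protein of the sheath. Smcp had 865 ± 62.7 CPM in KI and 655 ± 38.6 in WT (log2 0.40 ± 0.07, edgeR, adjusted p = 0.0307). An unadjusted p under 0.05 was reached by Smcp and by Gykl1, which was lower (-0.19 ± 0.07), and DESeq2 called 1 higher and 0 lower. The list median was -0.06, and Gpx4, which forms the sheath's structural matrix, had 0.00 ± 0.07.

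Of 14 genes of the head-tail coupling, where Spata6 acts, edgeR called 0, with 0 at an unadjusted p under 0.05 and 0 by DESeq2 (median 0.01). Odf2 of the outer dense fibres had a log2 fold change of 0.15 ± 0.08 and Akap4 of the fibrous sheath -0.14 ± 0.08. Of 17 genes of acrosome formation, where Spata16 acts, edgeR called 0, with 2 at an unadjusted p under 0.05 and 2 by DESeq2 (median 0.05; Acrbp, which binds proacrosin, 0.31 ± 0.07, edgeR, adjusted p = 0.0835; Ccin of the perinuclear theca 0.07 ± 0.07). The lists around members of broader function also held 0 calls by edgeR: linear ubiquitin and CYLD for Spata2 (8 genes, median 0.0037; Rbck1 0.11, Sharpin 0.05), ribosome maturation for Spata5 (6 genes, median 0.0037; Vcp 0.05, Mrto4 0.03), the connecting cilium for Spata7 (7 genes; Ahi1 -0.13) and Rac and Cdc42 exchange for Spata13 (6 genes, median 0.01; Cdc42 -0.11, Apc 0.08). At an unadjusted p under 0.05 these 4 lists held 1 gene, Rpgrip1 in the connecting cilium list, where DESeq2 called 1 lower. Rpgrip1 had 72.3 ± 5.54 CPM in KI and 92.9 ± 5.67 in WT (-0.36 ± 0.08 SE, edgeR, adjusted p = 0.0617). Among genes with like names, edgeR called 0 of 10 tested sperm associated antigens (2 at an unadjusted p under 0.05, and 1 higher and 1 lower by DESeq2; median 0.05; Spag17 0.04, Spag6l -0.09). Of 12 further spermatogenesis-associated symbols 1 was called, the acrosomal membrane gene Spaca4 (80.4 ± 0.627 CPM in KI, 61.3 ± 3.11 in WT; log2 0.39 ± 0.06; adjusted p = 0.0260), with a median of 0.05 (Spaca9 0.04, Spatc1l 0.05). An unadjusted p under 0.05 was reached by Spaca4, Spaca7 and Spatc1, all higher in KI, and DESeq2 called 2 of these 12 symbols higher. Spaca7 had a log2 fold change of 0.45 ± 0.09 (edgeR, adjusted p = 0.0589). With few genes per list and 0.982% of tested genes called, lists of these sizes would hold few calls in any case.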

How the data were processed

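The 6 whole-testis libraries were deposited as separate tables of mRNA, noncoding and circular RNA. Per the file headers they hold whole-number counts made by the authors, FPKM for linear RNAs and RPM for circles per library, and a mean per genotype (FPKM, or a signal for circles). The authors' deposited tables also give a log2 ratio and a p-value with its adjusted form. Per the submitters' processing notes reads were placed on mm10. Neither aligner nor counter nor use of strand is stated in the labels or headers used here. Samples of isolated cells were not analysed here, and 1 SPATA symbol and 1 partner gene are not reported here.

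The members and the lists of partner and marker genes were chosen with earlier results of these data known. Counts were tested on each whole table with edgeR 4.0.16 (quasi-likelihood test, TMM scaling, filterByExpr with minimum count 10 and minimum total 15; limma 3.58.1, R 4.3.3), two-sided, with Benjamini-Hochberg adjustment over all tested features and a threshold of 0.05. Circles needed at least 3 of 6 libraries above 0. CPM are TMM-scaled, and standard errors come from the quasi-likelihood F statistic. Variation between libraries beyond counting noise (edgeR's coefficient, which can include technical variation) was 11.1% in the mRNA, 26.4% in the noncoding and 43.4% in the circular table. The noncoding table held 1384224 to 1647421 counts in a library and that of circles 14381 to 20127. Libraries of 1 genotype differed by a chi-square per degree of freedom from 5.42 to 10.4, so none repeats another. Fits were checked on simulated counts.

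Every member is given by symbol. Values in every library are given for members called, the 5 largest fitted rises and falls, the 5 highest mean FPKM and the Spata31, Spata2 and Spata5 families, and for a few more. Of the partner lists, called genes, the 2 most abundant and a few more are named. Alternatives were DESeq2 1.42.0, quantile normalization, no filter, limma on FPKM, a length correction, a replicate block and leaving out each library. Positions and promoter sequences come from RefSeq (GRCm38.p6, the assembly of mm10), matched by symbol, and were aligned with Biopython 1.88.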

Additional observations from a re-analysis of the deposited data

How the results depend on the processing

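The number of SPATA genes called was 2 and was the same with DESeq2 size factors. Over all genes 155 were called, so the counts that follow are given with the number of all genes called. It was 6 of 456 in the DESeq2 test (Spata31d1d, Spata3, Spata32, Spata45, Spata33 and Spata24), 4 of 175 with no filter on low counts, 3 of 178 with the replicate block, 4 of 264 with quantile normalization, 4 of 251 with limma on FPKM at a pseudocount of 0.1 and 4 of 263 at a pseudocount of 1, and 0 of 67 with the length trend removed. Leaving out 1 library gave 0 to 2 members, with 11 to 125 of all genes. Spata33 and Spata24 were called in each of these alternatives other than the length correction and 5 of the 6 fits that leave out a library. The member median stayed between 0.11 and 0.18. Same-numbered libraries correlated at 0.142, 0.112 and 0.0148 in their deviations from the genotype means. Each KI library correlated best with the WT library of its number, while WT library 3 correlated best with KI library 2 (0.0390). These values do not settle whether the numbers pair the samples. The main fit used no pairing, and the replicate block did. Called noncoding transcripts numbered 0, and 1 of 110 in the DESeq2 test and 1 of 129 with no filter; circles stayed at 0. No called gene changed sign in these alternatives; among circles, fold changes were recomputed for the main Spata17 circle alone. Spata19 was -0.066 with the length trend removed, Spata5 was -0.0097 and -0.0094 with limma at the lower and higher pseudocount, Spata17 was 0.0624 and 0.0616, and the Spata9 noncoding transcript was 0.011 with the replicate block. Without 1 library the log2 fold change ran from -0.0023 to 0.16 for Spata19, -0.023 to 0.10 for Spata6, -0.028 to 0.066 for Spata31d1c, -0.017 to 0.087 for Spata31d1b, -0.026 to 0.047 for Spata5, -0.061 to 0.039 for Spata7 and -0.12 to 0.067 for Spata17. It ran from -0.35 to 0.50 for the Spata6 transcript ENSMUST00000134000, -0.23 to 0.13 for the Spata9 transcript ENSMUST00000223744 and -0.41 to 0.17 for the Spata17 circle. The causes were not tested.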
